A study of Mus musculus with 4 samples.

Results

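A group of 10 genes was examined, which mark resident macrophages of tissues or macrophages exposed to interleukin 4 (IL-4): Retnla, Mgl2, Clec10a, Cd209d, Mrc1, Lyve1, Vsig4, Timd4, Cd163 and Folr2. They are 10 of the 22180 genes measured. They were chosen from measured values of the same contrast described here, so their fold changes are given as a description, without p-values. Each had exactly 1 probe set. Total RNA of mouse synovium, the tissue that lines the joint, was hybridised to 4 Affymetrix MoGene 2.0 ST arrays, 1 per pool of mice. All animals were male C57BL/6J mice of 12 weeks, and tissue was taken around the tibiotalar joint. The 2 arthritic pools, labelled day 10 and peak inflammation, held 10 mice each, and these mice received 150 microlitres of arthritogenic serum into the peritoneum on days 0, 2 and 7. The 2 nonarthritic pools held 3 mice each, received phosphate buffered saline instead, per the protocol, and are labelled day 0. The labels also give K/BxN, the strain whose serum transfers the disease, as the serum source of all 4 pools, which conflicts with the saline of the nonarthritic mice. Day, treatment and pool size differ together between the groups and cannot be told apart. The series' text calls the pools of a group biological replicates. With 2 pools a group, every standard deviation below is the spread between pools. Every standard error comes from a fit that shares its estimate of spread over all genes, not from that gene's pools alone. Neither measures the spread between mice.

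Tissue macrophages live in most organs for long periods, where they take up dying cells, complement-coated particles, iron-bearing complexes and lipoproteins without raising inflammation. In the joint, resident macrophages lie in the synovial lining and in the tissue beneath it, some of them along blood vessels, while monocytes from blood enter when arthritis begins. IL-4 and the related cytokine IL-13 signal through a receptor chain encoded by Il4ra and the transcription factor STAT6, and in mouse macrophages they induce the secreted protein RELMα, encoded by Retnla, and several lectins that bind sugars on glycoproteins.

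The stretches before the start sites of Retnla and Timd4 are shown because they were the windows of these genes that held matches to the motifs searched. RefSeq promoter windows of build GRCm38.p6, each from 250 bases before to 50 bases after a start site, were found for 8 of the 10 genes, with 9 windows in all. Both strands were searched for TTCNNNNGAA (STAT6 type), GAGGAAGT (PU.1 type, PU.1 being a transcription factor of myeloid cells), TTGCNNAA (C/EBP type) and TGCTGAC (MAF type). The 250 bases before each start are printed 5′ to 3′ on the gene's strand, with the matches in capitals. Retnla lies at chr16:48842359-48842608 and Timd4 at chr11:46810549-46810798, both on the plus strand.
Retnla: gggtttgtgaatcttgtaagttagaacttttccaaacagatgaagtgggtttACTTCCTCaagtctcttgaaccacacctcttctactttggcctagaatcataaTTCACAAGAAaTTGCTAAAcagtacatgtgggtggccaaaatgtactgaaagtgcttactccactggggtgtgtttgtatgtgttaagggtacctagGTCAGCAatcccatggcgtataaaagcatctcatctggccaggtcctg
Timd4: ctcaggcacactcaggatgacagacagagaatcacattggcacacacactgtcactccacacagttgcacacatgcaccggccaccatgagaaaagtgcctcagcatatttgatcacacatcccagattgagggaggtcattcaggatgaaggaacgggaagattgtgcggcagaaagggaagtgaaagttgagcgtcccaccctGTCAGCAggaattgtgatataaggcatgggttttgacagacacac
In Retnla, the capitals mark, in order, ACTTCCTC (the PU.1 type on the minus strand, -198 to -191), TTCACAAGAA (the STAT6 type, -145 to -136), TTGCTAAA (the C/EBP type, -134 to -127) and GTCAGCA (the MAF type on the minus strand, -48 to -42), with -1 the base just before the start. In Timd4, GTCAGCA lies at -45 to -39, again the MAF type on the minus strand. Among 32851 windows of the same length, 6.95% held the STAT6 type, 3.2% the PU.1 type, 10.8% the C/EBP type and 4.67% the MAF type. The windows of Mgl2, Cd209d, Mrc1, Vsig4, Cd163 and Folr2 held none of these motifs. A match describes the letters of a window and does not show a bound site.

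Of the 10 genes, 8, all but Clec10a and Mrc1, passed the test of lower signal in arthritic synovium (limma, Benjamini-Hochberg adjusted p under 0.05 over all genes). Retnla fell to background signal, and Mgl2, Cd209d and Lyve1 were 6.02-fold to 7.06-fold lower. Of all genes, 6.62% were called lower and 8.72% higher, and the counts of every gene list below are to be held against these shares. The lists were chosen with earlier results of these data known, so their counts and the p-values of their genes are descriptions, not independent support. Rises were 56.8% of all calls. With each array's median set equal, they were 67.1%, and the median change of all genes was 0.10. All 10 genes had both arthritic pools under both nonarthritic pools, which held for 26.1% of all genes, and 8 were at least 2-fold lower, which held for 3.3%. Because the genes were chosen on this contrast, nothing is read from these shares. The median change of the 10 genes was -1.93 on the log2 scale, against 0.00 over all genes, where a log2 change of -1 is a 2-fold lower signal. With Retnla and Timd4 set to the background limit, under which their arthritic signals lay, the median was -1.80. In these bulk samples, fewer cells of a type and less RNA per cell cannot be told apart.

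**Figure D1:**
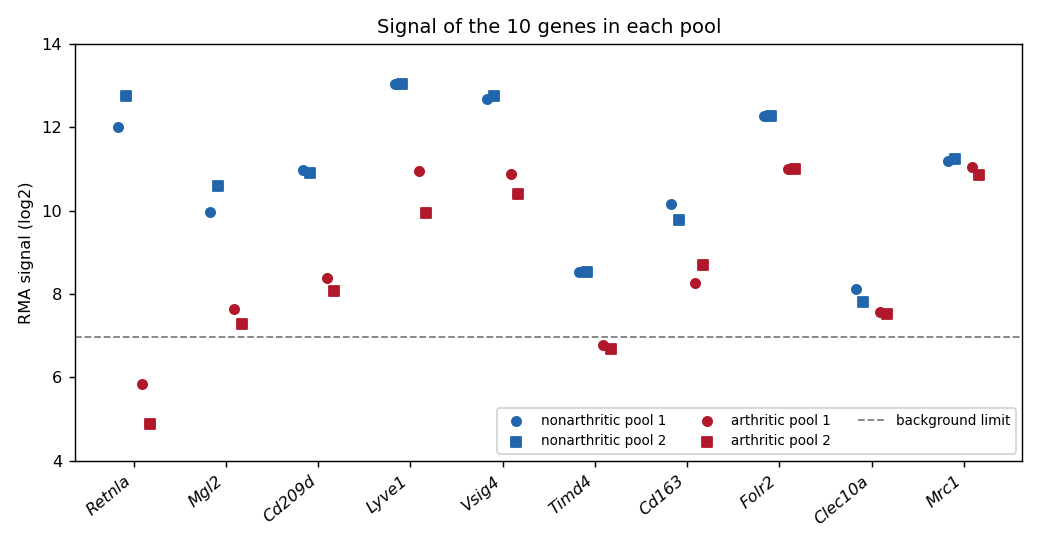
RMA signal (log2, vertical axis) of the 10 genes (horizontal axis) in each of the 4 pools, blue for nonarthritic and red for arthritic, with circles for pool 1 and squares for pool 2. The dashed line is the background limit of 6.98, and the arthritic points of Retnla and Timd4 lie under it.

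Retnla encodes RELMα, a small secreted protein that macrophages release in quantity under IL-4. Its log2 signal was 12.00 and 12.75 on nonarthritic pools 1 and 2, and 5.85 and 4.89 on arthritic pools 1 and 2. The groups lay far apart, and the pools within a group differed by less than 1. The means were 12.38 ± 0.53 and 5.37 ± 0.68 (SD, n = 2 pools), a change of -7.00 with a standard error (SE) of 0.34, or 128-fold as measured. Its arthritic mean lay under the background limit of 6.98, which is the 95th percentile of 1105 olfactory receptor genes, averaged over the arrays. Against that limit, Retnla was at least 42.1-fold lower in arthritic synovium.

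Among the lectins, Mgl2 encodes a macrophage galactose-type receptor (CD301b) that binds terminal galactose and N-acetylgalactosamine. Its log2 signal was 9.96 and 10.60 on the nonarthritic pools and 7.63 and 7.29 on the arthritic pools. The change was -2.82 (SE 0.24), or 7.06-fold lower. Clec10a encodes the closely related receptor CD301a and lies beside Mgl2 in the genome. It read 8.11 and 7.80 on the nonarthritic pools and 7.57 and 7.53 on the arthritic pools, a log2 change of -0.41 (SE 0.17) that did not pass the test. The lower nonarthritic pool and the higher arthritic pool of Clec10a were 0.23 apart, so the groups did not overlap but lay close.

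Cd209d encodes SIGN-R3, a mouse relative of the dendritic cell lectin DC-SIGN. It read 10.97 and 10.91 on the nonarthritic pools and 8.38 and 8.08 on the arthritic pools, 6.54-fold lower, with a log2 change of -2.71 (SE 0.17). Pools of a group differed little beside that change. Mrc1 encodes the mannose receptor CD206, which takes up glycoproteins with terminal mannose and is in wide use as a marker of macrophages exposed to IL-4. It read 11.20 and 11.23 on the nonarthritic pools and 11.04 and 10.86 on the arthritic pools. The log2 change of Mrc1 was -0.26 (SE 0.16), 1.20-fold lower, and did not pass the test. In these pools the mannose receptor thus had the smallest change of the 10 genes.

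The other 5 genes encode receptors of resident macrophages. Lyve1 encodes a hyaluronan receptor of macrophages along vessels and of lymphatic endothelium. Lyve1 read 13.03 and 13.04 on the nonarthritic pools and 10.95 and 9.94 on the arthritic pools. The nonarthritic pools were nearly equal, and the arthritic pools were 1.01 apart, the widest gap within a group among the 10 genes. The log2 change was -2.59 (SE 0.30), or 6.02-fold lower.

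Vsig4 encodes CRIg, a complement receptor that takes up particles coated with C3 fragments. It read 12.67 and 12.75 on the nonarthritic pools and 10.88 and 10.41 on the arthritic pools, 4.18-fold lower (log2 change -2.06, SE 0.19). Timd4 encodes TIM-4, a receptor for phosphatidylserine on dying cells. It read 8.52 on both nonarthritic pools and 6.77 and 6.68 on the arthritic pools. The measured change of Timd4 was -1.79 (SE 0.15), and since the arthritic pools lay under the background limit, the signal was at least 2.91-fold lower.

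Cd163 encodes the scavenger receptor for complexes of haemoglobin and haptoglobin. It read 10.17 and 9.77 on the nonarthritic pools and 8.27 and 8.69 on the arthritic pools. Its log2 change was -1.49 (SE 0.21), or 2.81-fold lower, and arthritic pool 2 was the higher of the arthritic pools, unlike most of the 10 genes. Folr2 encodes folate receptor beta. It read 12.27 on both nonarthritic pools and 10.99 and 11 on the arthritic pools, a log2 change of -1.28 (SE 0.15) and a 2.42-fold lower signal. The pools of each group were almost identical for Folr2.

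The number of calls moved with single pools. Retnla and Cd209d kept their calls without any 1 pool, and Cd163 lost its call without each of the 4. Without nonarthritic pool 1, 6 of the 10 genes were called lower, with Lyve1 also lost. Without nonarthritic pool 2 the number was 4, with Lyve1, Vsig4 and Folr2 also lost. Without arthritic pool 1 it was 6, with Folr2 also lost, and without arthritic pool 2 it was 3, with Vsig4, Timd4, Folr2 and Mgl2 also lost. In these 4 fits the log2 change ranged from -1.70 to -1.28 for Cd163, from -1.28 to -1.27 for Folr2, from -1.84 to -1.75 for Timd4 and from -2.30 to -1.83 for Vsig4. It ranged from -3.10 to -2.08 for Lyve1 and from -3.14 to -2.50 for Mgl2. Fits with 1 pool in a group assume that this pool varies like the other group. Over all genes, the count called lower ranged from 105 to 584 in these fits, against 1469 with all pools.

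Pools of the same condition give a difference that the choice of the genes did not use. Of the 10 genes, 3 read higher on nonarthritic pool 1 than on nonarthritic pool 2, 5 read lower and 2 were equal, while 53.9% of all genes read higher on pool 1. Between the arthritic pools, 8 of the 10 read higher on pool 1, against 48.9% of all genes. The exceptions were Cd163 and Folr2. Of the 8, Retnla and Timd4 lay under the background limit on both arthritic pools, so their order there is that of background signal. The median difference of the 10 genes between the arthritic pools was 0.24. Skeletal muscle markers were higher on arthritic pool 1 for 12 of 12 genes (median 0.47) and fat cell markers for 8 of 11. Blood vessel markers were higher there for 11 of 12 genes (median 0.34) and lymphatic markers for 8 of 11 (median 0.33). General macrophage genes were higher on arthritic pool 1 for 4 of 18 genes (median -0.14) and neutrophil markers for 1 of 15 (median -0.31). In the lists described below, the counts there were 20 of 43 other resident macrophage genes, 13 of 23 IL-4-induced genes and 4 of 26 inflammatory genes. Between the nonarthritic pools, skeletal muscle markers were higher on pool 1 for 0 of 12 genes (median -0.37) and fat cell markers for 5 of 11. Blood vessel markers were higher on that pool for 10 of 12 genes and lymphatic markers for 9 of 11. For general macrophage genes the count was 17 of 18 (median 0.14), and for neutrophil markers 8 of 15 (median 0.27). Other resident macrophage genes were higher on nonarthritic pool 1 for 37 of 43 (median 0.13), unlike the 10 genes. IL-4-induced genes were higher there for 9 of 23 (median -0.07) and inflammatory genes for 22 of 26 (median 0.31). The part of other cell types in the differences between the pools was not tested.

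General macrophage genes were called in the other direction. In a list of 18 genes expressed by most macrophages, 7 rose and 0 fell by limma, with a median log2 change of 0.41. At an unadjusted p under 0.05, 1 was lower, Cd33 (-0.52), and re-normalization by quantiles, the filter on dim genes and the fit with an intensity trend each called 1 gene lower. The genes that rose most were Mpeg1, a pore-forming protein of phagocytes (1.91, adjusted p = 0.000492), Fcgr1, the high affinity IgG receptor (1.59, adjusted p = 0.00136), Tyrobp, an adaptor of activating receptors (1.21, adjusted p = 0.00299), and Cd14, a receptor for lipopolysaccharide (0.85, adjusted p = 0.0298). Adgre1, which encodes a surface receptor that marks mouse macrophages, read 10.72 and 10.58 on the nonarthritic pools and 11.05 and 11.29 on the arthritic pools (0.52, limma adjusted p = 0.0772). Csf1r is the receptor on which macrophages depend for survival. It read 11.70 and 11.48 on the nonarthritic pools and 11.42 and 11.54 on the arthritic pools (-0.11, limma adjusted p = 0.727). Neutrophil markers rose between the same groups (median 2.56). The part of neutrophils and other cells in the signal of the 18 genes was not tested. Without 1 pool, the number of general macrophage genes called higher was 0 (without arthritic pool 2), 1 (without nonarthritic pool 2 or arthritic pool 1) or 3 (without nonarthritic pool 1).

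The change of each of the 10 genes was therefore also taken relative to the mean of the 18 general macrophage genes in the same pool, which itself changed by 0.50. On that scale the changes were -7.51 for Retnla, -3.32 for Mgl2, -3.21 for Cd209d, -3.09 for Lyve1, -2.57 for Vsig4, -2.30 for Timd4, -1.99 for Cd163, -1.78 for Folr2, -0.91 for Clec10a and -0.77 for Mrc1. For Retnla and Timd4 the size is not measured, and against the background limit the changes were at least as low as -5.90 and -2.04. The median was -2.43, or -2.31 with these bounds, and relative to Csf1r alone it was -1.82. Relative to Csf1r, Mrc1 changed by -0.16 and Clec10a by -0.29. Such a ratio shows that the genes changed unequally, not which of them changed per cell.

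**Figure D2:**
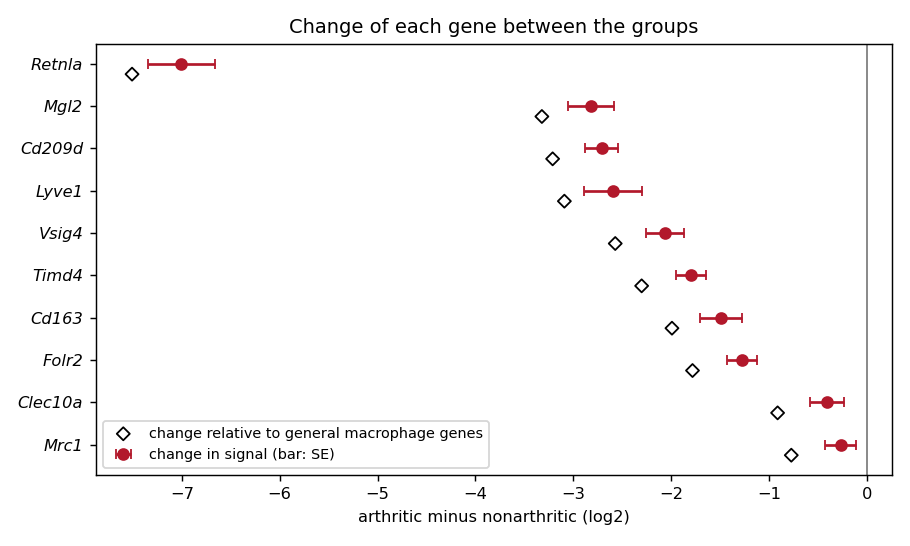
Change of each of the 10 genes from nonarthritic to arthritic synovium (log2, horizontal axis), as filled points with bars of 1 standard error. Open diamonds give the change relative to the mean of 18 general macrophage genes, and every diamond lies further below 0 than its point because that mean changed by 0.50. For Retnla and Timd4, whose arthritic signals lay under the background limit, both marks are measured values whose true size may differ.

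Among 25 measured relatives of the 10 genes, 3 rose and 2 fell, while 8.72% of all genes were called higher and 6.62% lower, so the share called was near that of all genes. In the resistin-like family, Retnlg, a product of neutrophils that neighbours Retnla in the genome, read 8.65 and 8.33 on the nonarthritic pools and 11.09 and 10.81 on the arthritic pools (2.46, limma adjusted p = 0.000239). Retn, the fat cell hormone resistin, read 12.21 and 12.11 on the nonarthritic pools and 9.12 and 8.59 on the arthritic pools (-3.30, limma adjusted p = 0.000136). Retnlb, the other neighbour of Retnla, lay at background on all 4 arrays. Retnla and Retn were thus lower and Retnlg higher in arthritic synovium.

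In the Cd209 family, Cd209b, which neighbours Cd209d and encodes SIGN-R1, fell: it read 8.82 and 8.55 on the nonarthritic pools and 7.33 and 7.40 on the arthritic pools (-1.32, limma adjusted p = 0.0019). Cd209a had 2 probe sets that disagreed, since 1 changed by 0.74 without passing the test and the other by -0.94. Cd209c changed by -0.24 and Cd209g by -0.35, neither of them called, and Cd209e, the other neighbour of Cd209d, lay at background in both groups. Genes of this family are similar in sequence, so probes may take up RNA of more than 1 of them, and the share of such signal was not measured. Mrc2, the relative of the mannose receptor on fibroblasts that takes up collagen, rose by 0.98 (limma adjusted p = 0.00709), from 10.88 and 10.63 to 11.81 and 11.67. Ly75, also called higher, read 6.21 and 6.01 on the nonarthritic pools and 6.93 and 6.88 on the arthritic pools. Both of its group means lay under the background limit. Over all 25 relatives, 20 were not called, the median was 0.04, and 10 lay at or under background in both groups. Without 1 pool, 1 relative was called higher except without nonarthritic pool 1 (2), and 1 was called lower without either arthritic pool.

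**Figure D3:**
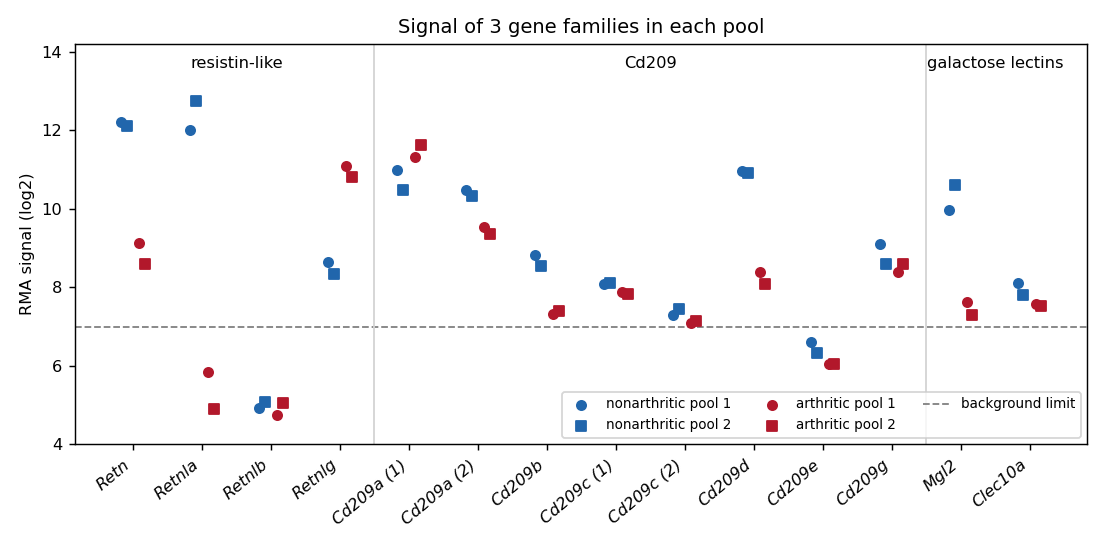
RMA signal (log2, vertical axis) of the resistin-like genes, the Cd209 genes and the macrophage galactose lectins (horizontal axis, with a number in brackets where a gene has 2 probe sets), in blue for nonarthritic and red for arthritic pools. Retnla and Retn lie lower and Retnlg higher on the arthritic pools, and the probe sets of Cd209a disagree.

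Other genes of resident macrophages were called in both directions. Of 46 listed genes, 43 were measured. By limma, 6.62% of all genes were called lower and 8.72% higher. Of the 43, 9 fell, 7 rose, and the median log2 change was -0.05. The largest falls were those of Gpr34, a lysophosphatidylserine receptor (-1.53, limma adjusted p = 0.00153), Slco2b1, an organic anion carrier (-1.52, limma adjusted p = 0.00135), Fxyd2, a regulator of the sodium pump (-1.36, limma adjusted p = 0.00145), and Cd209b. Gpr34 read 8.90 and 8.52 on the nonarthritic pools and 7.27 and 7.08 on the arthritic pools, groups that were well apart. The largest rises were those of Ccl8, a chemokine of some resident macrophages, Hmox1, which degrades haem, Ms4a7 and Fcrls. Ccl8 read 9.63 and 9.50 on the nonarthritic pools and 10.90 and 11.34 on the arthritic pools (1.55, limma adjusted p = 0.00163), and Hmox1 changed by 1.52 (limma adjusted p = 0.00121). Igf1 (0.23), Gas6 (0.42) and Selenop (-0.42) did not pass the test. The samples were bulk tissue, and the part of other cells in the signal of the 43 genes was not tested. Leaving out 1 pool gave 0 to 4 genes called lower and 0 to 5 called higher, both lowest without arthritic pool 2. The number called lower was 4 without nonarthritic pool 1, 3 without nonarthritic pool 2 and 2 without arthritic pool 1, and the number called higher was 0 without nonarthritic pool 2 and 3 without arthritic pool 1.

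Of 25 listed genes that IL-4 induces in macrophages, 23 were measured: 8 fell, 2 rose, 13 were not called, and the median log2 change was -0.34. Over all genes, 6.62% were called lower and 8.72% higher. Rnase2a, a ribonuclease of macrophages and eosinophils, read 10.82 and 11.88 on the nonarthritic pools and 5.15 and 5.10 on the arthritic pools (-6.22, limma adjusted p = 7.79e-05). Ccl17, a chemokine for type 2 T cells, read 11.03 and 11.97 on the nonarthritic pools and 6.43 and 5.89 on the arthritic pools (-5.34, limma adjusted p = 0.000117). The arthritic means of both lay under the background limit, which makes Rnase2a at least 20.7-fold and Ccl17 at least 23.0-fold lower. On both genes, as on Retnla, nonarthritic pool 2 read higher than nonarthritic pool 1.

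Ccl24, an eosinophil chemokine, changed by -2.44 (limma adjusted p = 0.000147). Pparg, a nuclear receptor of lipid metabolism that fat cells also express, read 11.17 and 10.85 on the nonarthritic pools and 8.91 and 8.75 on the arthritic pools (-2.18, limma adjusted p = 0.00033). The genes that rose were Atp6v0d2, a subunit of the proton pump (1.83, limma adjusted p = 0.000858), and Socs1, an inhibitor of cytokine signalling (0.83, limma adjusted p = 0.0136). Arg1, which encodes arginase 1 and is the classic enzyme of IL-4-treated mouse macrophages, read 8.84 and 9.76 on the nonarthritic pools and 9.29 and 9.89 on the arthritic pools (0.29, limma adjusted p = 0.613). Chil3, which encodes the chitinase-like protein Ym1, read 6.23 and 8.07 on the nonarthritic pools and 7.48 and 8.06 on the arthritic pools (0.62, limma adjusted p = 0.483). The groups overlapped for both Arg1 and Chil3. Without arthritic pool 2, 3 of the IL-4-induced genes were called lower, and without 1 of the other pools 6 to 8. The number called higher was 0 without nonarthritic pool 2 or arthritic pool 2 and 1 without each of the others.

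Of the 20 listed cytokine, receptor and signalling genes of the IL-4 and IL-13 pathway, 17 were measured, with 2 called higher, 2 called lower and a median of 0.31, while 8.72% of all genes were called higher and 6.62% lower. At an unadjusted p under 0.05, 7 of the 17 were higher and 2 lower, and in 11 both arthritic pools lay above both nonarthritic pools. Of all 22180 genes, 3640 were higher and 2823 lower at that level, and in 6703 both arthritic pools lay above both nonarthritic pools. Il4 lay at background in both groups. Il13 read 7.49 and 7.94 on the nonarthritic pools and 7.34 and 7.56 on the arthritic pools (-0.26, limma adjusted p = 0.436), and Il33, an alarm cytokine that acts upstream of type 2 responses, changed by 0.53 (limma adjusted p = 0.085). Il4ra read 10.30 and 10.05 on the nonarthritic pools and 11.61 and 12.17 on the arthritic pools, and rose by 1.71 (limma adjusted p = 0.00185). Ptpn6, a phosphatase that restrains cytokine receptors, rose by 0.98 (limma adjusted p = 0.00599). Tslp, an epithelial cytokine, fell to background (-1.21, limma adjusted p = 0.00213) and was at least 1.68-fold lower. Irs2, an adaptor of insulin and IL-4 receptors, fell by 0.60 (limma adjusted p = 0.034). The number called lower was 1 without nonarthritic pool 1 and 0 without each of the other pools, and 1 after centring arrays on their medians. The number called higher was 2 without nonarthritic pool 1, 1 without arthritic pool 1 and 0 without nonarthritic pool 2 or arthritic pool 2.

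Genes of monocytes and inflammatory macrophages mostly rose. Of 30 listed genes, 26 were measured: 18 rose, 0 fell, and the median was 1.23. Of these, 1 was lower at an unadjusted p under 0.05, and re-normalization by quantiles called 1 lower. Clec4e, a receptor for mycobacterial glycolipid and dying cells, read 7.64 and 7.21 on the nonarthritic pools and 10.68 and 10.84 on the arthritic pools (3.33, limma adjusted p = 0.000117). Acod1, the enzyme that makes itaconate, changed by 3.61, Saa3, an acute phase protein, by 3.54, and Il1b by 3.83. Il1b read 9.37 and 7.10 on the nonarthritic pools and 11.80 and 12.34 on the arthritic pools, so its nonarthritic pools were further apart than those of any of the 10 genes. Ly6c2, a marker of monocytes newly arrived from blood, changed by -0.16 and was not called. In the same list, Ccr2 (0.695, limma adjusted p = 0.0397) and Plac8 (1.82, limma adjusted p = 0.00365) were called higher. The nonarthritic mean of Plac8 lay under the background limit. Without 1 pool, the number called higher was 14 (nonarthritic pool 1), 7 (nonarthritic pool 2), 6 (arthritic pool 1) or 1 (arthritic pool 2).

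**Figure D4:**
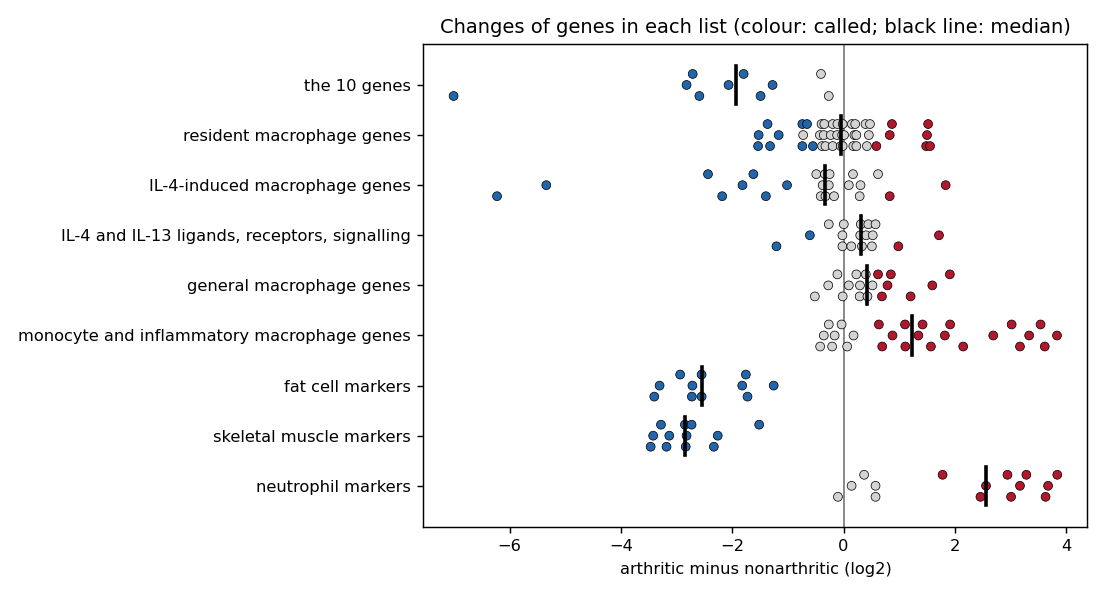
Change of each measured gene from nonarthritic to arthritic synovium (log2, horizontal axis) in 9 lists (vertical axis), in blue where called lower, red where called higher and grey where not called, with a black line at the median. The 10 genes have a median of -1.93, other resident macrophage genes -0.05, IL-4-induced genes -0.34 and general macrophage genes 0.41.

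Markers of other cell types moved between the same groups, and their part in the changes of the 10 genes was not tested. All 11 measured fat cell markers fell (median -2.55), with mean levels of 11.02 to 11.06 on the nonarthritic pools and 8.45 to 8.77 on the arthritic pools. All 12 skeletal muscle markers fell (median -2.84), from 11.15 and 11.55 to 8.77 and 8.29. The mean of the 10 genes was 10.89 and 10.96 on the nonarthritic pools and 8.83 and 8.54 on the arthritic pools. It includes Retnla (-7.00) and Timd4, whose arthritic signals lay under the background limit, so its size is not fully measured. The changes of the 10 genes were unequal, with a median of -1.93 and the smallest, that of Mrc1, at -0.26. Among 15 neutrophil markers, 10 rose and 0 fell (median 2.56), with mean levels of 7.12 to 7.36 on the nonarthritic pools and 9.22 to 9.51 on the arthritic pools. No neutrophil marker was lower at an unadjusted p under 0.05. Without arthritic pool 2, 5 fat, 5 muscle and 3 neutrophil markers were called, and without nonarthritic pool 2, 6 fat markers were.

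**Figure D5:**
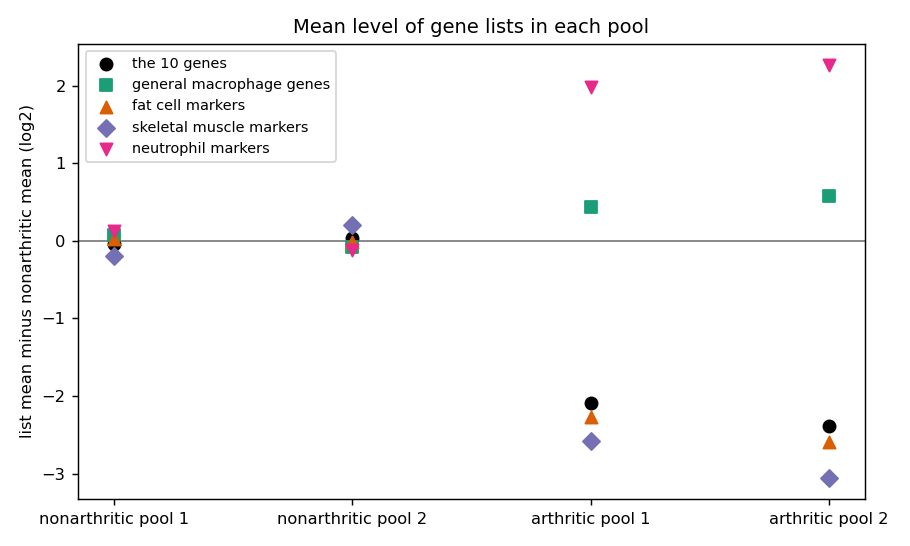
Mean log2 level of 5 gene lists in each pool, minus the mean of the nonarthritic pools for that list (vertical axis), for the 4 pools (horizontal axis). The 10 genes, fat cell markers and skeletal muscle markers lie lower on both arthritic pools, while general macrophage genes and neutrophil markers lie higher. The mean of the 10 genes includes Retnla and Timd4, whose arthritic signals lay under the background limit.

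Lymphatic endothelium also expresses Lyve1. Against 6.62% of all genes called lower and 8.72% higher, 3 of 11 measured lymphatic markers fell and 3 rose. Their median was 0.04, with pool means of 9.57 to 9.75 and 9.31 to 9.64. Prox1, the transcription factor that defines lymphatic cells, read 8.11 and 7.61 on the nonarthritic pools and 8.42 and 7.37 on the arthritic pools (0.04, limma adjusted p = 0.963). Flt4, the receptor of lymphatic growth factors, read 9.52 and 9.39 on the nonarthritic pools and 9.73 and 9.29 on the arthritic pools (0.06, limma adjusted p = 0.893). The groups overlapped for Prox1 and Flt4. The markers that fell were Sema3d, a guidance protein (-1.61, limma adjusted p = 0.00127), Fgl2, a fibrinogen-like protein (-1.15, limma adjusted p = 0.00432), and Reln, which encodes reelin (-1.07, limma adjusted p = 0.00892). Pdpn, which encodes podoplanin (1.19), Nrp2, a coreceptor of lymphatic growth factors (0.96), and Thy1, also a fibroblast marker (0.68), rose. Mmrn1, a secreted protein of lymphatic cells, read 10.67 and 10.57 on the nonarthritic pools and 10.06 and 8.88 on the arthritic pools (-1.15, limma adjusted p = 0.0545). Like Lyve1 it was lower on arthritic pool 2 than on arthritic pool 1. That order held for 8 of the 11 lymphatic markers, Prox1 and Flt4 among them, and for 48.9% of all genes. The part of lymphatic cells in the change of Lyve1 was not tested. Without 1 pool, 0 to 2 lymphatic markers were called lower (0 without nonarthritic pool 2 or arthritic pool 2, 1 without nonarthritic pool 1) and 0 or 1 higher (0 without each pool but nonarthritic pool 1).

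Of the other cell types, eosinophil markers were mostly dim. Of 8 measured, 5 lay at or under background in both groups, Epx and Prg2 among them, and 1 fell, Alox15, a lipoxygenase of eosinophils and macrophages (-1.40). Siglecf, an eosinophil surface lectin, read 7.41 and 7.57 on the nonarthritic pools and 7.75 and 7.87 on the arthritic pools. Among 11 dendritic cell markers 1 rose and 1 fell (median 0.01). These counts were near the shares of all genes called, 8.72% higher and 6.62% lower, and nothing is read from them. Among 10 mast cell markers 1 rose and 4 fell (median -0.40), and among 12 blood vessel markers 2 rose and 0 fell (median 0.16, with 1 lower at an unadjusted p under 0.05). Among 16 markers of synovial lining and fibroblasts 6 rose and 4 fell (median 0.36). The markers that fell were Clic5 (-2.48, limma adjusted p = 0.000989), Htra4 (-1.88, limma adjusted p = 0.00185), Cd55, a complement regulator of the lining (-1.44, limma adjusted p = 0.00304), and Dpp4 (-0.94, limma adjusted p = 0.00701). The largest rises were those of Cdh11, a cadherin of synovial fibroblasts (1.70, limma adjusted p = 0.0007), Vcam1, an adhesion molecule (1.45, limma adjusted p = 0.00121), Pdpn (1.19) and Col3a1, a collagen chain (0.80). Clic5 read 12.30 and 12.20 on the nonarthritic pools and 10.22 and 9.32 on the arthritic pools, and Htra4 read 13.09 and 12.98, then 11.51 and 10.79. Like Lyve1, both were lower on arthritic pool 2 than on arthritic pool 1, an order that held for 10 of the 16 synovial markers. The part of Clic5 and Htra4 in the changes of the 10 genes was not tested. Prg4, the lubricin gene of lining fibroblasts, read 13.66 on both nonarthritic pools and 13.27 and 13.52 on the arthritic pools (-0.26, limma adjusted p = 0.343). Alox15 was not called without nonarthritic pool 2 or arthritic pool 2, and no blood vessel marker was called higher without any 1 pool. Mast cell markers called lower numbered 2 without arthritic pool 1, 1 without nonarthritic pool 1 and 0 without each of the others. Of the synovial markers, 3, 1, 1 and 0 were called higher and 0, 0, 2 and 1 lower without nonarthritic pools 1 and 2 and arthritic pools 1 and 2, in that order.

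Genes with the profile nearest to Retnla were sought by the Euclidean distance over the 4 pools after each gene was centred on its own mean. The nearest were Rnase2a (distance 1.03), Ccl17 (1.70), Clec3a (2.18), Inmt (2.31) and C7 (2.62). Of these, Rnase2a and Ccl17 are in the IL-4-induced list, which was chosen with earlier results of these data known. Nearest to the mean of the 10 genes were Aldh1a1 (0.04), Npy (0.08), Abca6 (0.12), Actn3 (0.14) and Ntrk3 (0.14), and Actn3 is one of the skeletal muscle markers. The arthritic signals of Retnla, Rnase2a and Ccl17 lay under the background limit, so their distances rest in part on background signal. The mean of the 10 genes includes Retnla and Timd4, so distances to it do so too. Over 4 pools in 2 groups, such a distance mostly describes the size of the change between the groups.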

How the data were processed

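RNA of 4 synovial pools was measured on 1 array each. The authors deposited log2 signals per probe set, for which the submitters' processing notes name RMA (a summary of probes after background correction and normalization between arrays), Affymetrix Power Tools and Affymetrix Expression Console. Tool versions were not given in the sources used here, and the log2 scale was read from the values (2.89 to 14.27). RMA compresses differences near background. Array medians were 6.96 to 7.15. The number of arrays limits the precision.

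Of 41345 probe sets, 23521 had 1 gene symbol in the platform's table, 1814 had several and 16010 had none. Only those with 1 symbol were used, with the probe set of highest mean for each gene (22180 genes). By gene number, 23328 matched RefSeq (GRCm38.p6) and 0 were renamed. The files name no build, so no coordinates were taken for probe sets. Protein sequences were not used here.

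Arthritic and nonarthritic pools were compared with limma 3.58.1 in R 4.3.3 (lmFit, eBayes, 2-sided, no covariate, Benjamini-Hochberg over all genes, threshold 0.05). The code was also run on simulated data with the same spread for every gene, taken from the nonarthritic pools. Real genes differ in spread, so that run does not show how the test performs on these pools. Residual degrees of freedom were 2 and prior degrees of freedom 5.98. Tables were made with Python 3.11.15 and pandas 2.3.3. The background limit was 6.98, from olfactory receptor genes, and an alternative at the 90th percentile was 6.52. A group mean at or under the limit makes a fold change a lower bound.

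The 10 genes and the gene lists were chosen with earlier results of these data known. Named were the 10 genes and their relatives, and in each list at most 4 called genes per direction by size of change. At most 3 genes not called per list, in list order, and the 5 nearest profiles were also named. Cd33, Ccr2 and Plac8 were named after their values were seen. Csf1r and Mertk are in both the resident and general macrophage lists, and some relatives and markers are in several lists. In all, 11 alternative settings of the fit were tried: median centring, quantile normalization again, a filter on dim genes, averaged or lowest probe sets, an intensity trend, the pool number as a block, and each pool left out.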

Additional observations from a re-analysis of the deposited data

How the results depend on the processing

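Of the 10 genes, 8 were called lower in each of the 7 settings that kept all pools, the replicate block among them, and 3 to 6 when 1 pool was left out. Retnla ranged from -7.48 to -6.52 (log2) over the settings, Lyve1 from -3.10 to -2.08 and Mrc1 from -0.36 to -0.17. Of all genes, 1933 were higher and 1469 lower. With the pool number as a replicate block 1216 were higher and 1027 lower; the labels share a number and nothing else, and differences between pools 1 and 2 correlated at 0.176 between the groups, over genes. Without 1 pool, 47 to 637 were higher and 105 to 584 lower. Centring arrays on their medians gave 2314 higher and 1134 lower, so that 67.1% of calls were rises, against 56.8% with the values as deposited, and moved the median of all genes to 0.10. Without 1 pool, called counts ranged as follows: resident genes 0 to 4 lower and 0 to 5 higher, IL-4-induced genes 3 to 8 lower and 0 to 1 higher, general macrophage genes 0 to 3 higher, inflammatory genes 1 to 14 higher, and IL-4 and IL-13 signalling genes 0 to 1 lower. With the replicate block, 4 general macrophage genes rose against 7 and 1 IL-4 and IL-13 signalling gene fell against 2, also 1 with centring. General macrophage genes called lower numbered 1 after quantile normalization, the filter on dim genes or the intensity trend, against 0. The median change of the 10 genes relative to general macrophage genes was -2.43, and -1.82 with Csf1r alone. Other counts also moved. With the intensity trend 4 signalling genes rose against 2, and with the filter 5 lymphatic markers fell against 3. Of blood vessel markers 1 fell after quantile normalization or the filter, against 0, and of inflammatory genes 1 fell after quantile normalization, against 0. Of dendritic cell markers 3 rose with centring or the filter, 2 with the trend and 0 with the block, against 1, and 0 fell with centring and 2 with the lowest probe sets, against 1. At a 90th percentile limit, 1 of the 10 genes lay at or under background in arthritic synovium, against 2. Fits without 1 pool hold fewer samples; other causes were not tested.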
